A study of Mus musculus with 7 samples.

Results

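The sarcomeric thin filament was followed through 10 genes, chosen by name: the troponin T genes Tnnt1, Tnnt2 and Tnnt3, the troponin I genes Tnni1 and Tnni2, the troponin C genes Tnnc1 and Tnnc2, the actin genes Acta1 and Actc1, and the tropomyosin gene Tpm2. The platform table paired 17 probe sets with these genes alone, out of 34945 probe sets paired with a single gene, and all 10 were among the 18193 genes tested. RNA came from myoblasts of C57BL/6 mice, 1 array per sample. The 4 Hmga2 KO samples carried the HMGA2 -/- genotype, of which replicates 1 and 3 came from male and replicates 2 and 4 from female mice. For Hmga2 KO replicate 2 the labels give different animal numbers in different fields, and the replicate number of its title is used here. The 3 wild type samples were all from females. The protocols list no treatment, and neither age, culture conditions nor the deleted part of the gene is stated in the labels. Each sample is labelled a biological replicate, and 7 arrays limit the precision of all that follows.

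Thin filaments are built from actin, along which tropomyosin lies in the groove, with a troponin complex on each tropomyosin. Troponin C binds calcium, troponin I holds the filament in its inhibited state, and troponin T ties the complex to tropomyosin. Skeletal muscle makes each subunit from separate genes in slow and fast fibres, and embryonic muscle also uses isoforms that later belong to the heart, which is why these genes are read as signs of myoblast differentiation and of fibre type. Tnnt1, Tnni1 and Tnnc1 are the slow isoforms, Tnnt3, Tnni2 and Tnnc2 the fast ones, Tnnt2 and Actc1 the cardiac and embryonic ones, and Acta1 the actin of adult skeletal muscle.

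In these myoblasts every one of the 10 genes had a lower mean in Hmga2 KO than in wild type, by 0.23 to 0.82 on the log2 scale. None passed the test (adjusted p = 0.357 to 0.557, limma), which 0.0275% of all genes did. On the brightest probe sets, the fast isoform of each troponin subunit had the larger difference, with -0.62 for Tnnt3, -0.82 for Tnni2 and -0.81 for Tnnc2, against -0.23 for Tnnt1, -0.63 for Tnni1 and -0.41 for Tnnc1 among the slow ones. For troponin I this order was not kept when a gene's probe sets were averaged (-0.59 for Tnni2 and -0.63 for Tnni1), and in females alone the values were -0.22 for Tnni2 and -0.20 for Tnni1. The lowest and highest Hmga2 KO samples lay further apart than the means of the genotypes did for each gene: Hmga2 KO replicate 1 was the lowest of all 7 samples for all 10 genes, and Hmga2 KO replicate 2 lay within the wild type range for all 10.

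The promoters of 4 members are shown, because the genes varied together over the samples. They are the actin pair, Tnnc2, with the widest range over samples among the members with a promoter in the RefSeq table, and Tnnt1, with the narrowest. That table (build GRCm38.p6) held windows for 8 of the 10 members, and each line gives the 250 bases before the annotated start, on the gene's strand, 5′ to 3′. Capitals mark the E-box CANNTG (bound by myogenic bHLH factors), the MCAT element CATTCC (bound by TEAD factors), TATAAA, and the CArG box (bound by SRF), each on either strand.
Acta1, chr8:123894776-123895025, minus strand: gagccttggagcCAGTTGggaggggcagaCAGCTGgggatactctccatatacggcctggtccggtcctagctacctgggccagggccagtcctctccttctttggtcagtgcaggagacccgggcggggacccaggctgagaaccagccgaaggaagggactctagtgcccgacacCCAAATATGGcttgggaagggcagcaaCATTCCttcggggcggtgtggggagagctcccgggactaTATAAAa
Actc1, chr2:114052876-114053125, minus strand: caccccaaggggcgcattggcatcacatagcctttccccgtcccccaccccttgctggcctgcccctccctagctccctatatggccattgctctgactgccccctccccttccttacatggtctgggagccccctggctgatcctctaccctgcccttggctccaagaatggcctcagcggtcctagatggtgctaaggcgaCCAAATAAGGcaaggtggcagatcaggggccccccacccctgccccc
Tnnc2, chr2:164779735-164779984, minus strand: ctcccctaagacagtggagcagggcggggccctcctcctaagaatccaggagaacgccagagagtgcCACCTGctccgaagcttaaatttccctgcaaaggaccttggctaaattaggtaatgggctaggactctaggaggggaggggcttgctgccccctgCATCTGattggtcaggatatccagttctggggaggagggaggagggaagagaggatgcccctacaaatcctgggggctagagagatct
Tnnt1, chr7:4515976-4516225, minus strand: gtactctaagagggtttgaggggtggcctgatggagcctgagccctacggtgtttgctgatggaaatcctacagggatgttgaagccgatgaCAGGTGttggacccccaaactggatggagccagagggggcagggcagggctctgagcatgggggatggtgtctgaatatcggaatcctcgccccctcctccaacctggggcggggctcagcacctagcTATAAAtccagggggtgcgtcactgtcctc
The CArG box was found in 2 of the 8 members, both of them actin genes, where it begins 73 bases before the start in Acta1 and 47 bases before it in Actc1. Over all 32851 windows of this length, 1.47% held a CArG box. The 8 members had 10 windows, with more than 1 for Tnnt2 and Tnni1. A member was counted if any of its windows held the match, whereas the shares are of single windows. The E-box was found in 7 of the 8 members, all except Actc1, and in 66.2% of all windows. CATTCC was found in 3 members (Tnnt2, in 1 of its windows, Tnnc1 and Acta1) and in 12.6% of all windows. TATAAA was found in Tnnt1 and Acta1, and in 12.4% of all windows. The marked matches do not overlap each other in these 4 windows. The MEF2 box was in 0 of the 8 members and in 2.92% of all windows. These matches describe the letters in this window and were not tested against the array values. Matches outside the window were not counted. In Acta1, TATAAA ends 1 base before the annotated start. Whether the annotated starts are those used in these cells was not tested, so the distances hold for the annotation only. On the chromosomes, Tnni1 and Tnnt2 lie on chromosome 1 with 1 gene (Lad1) between them, and Tnni2 and Tnnt3 likewise on chromosome 7 with Lsp1 between them, in the RefSeq order of GRCm38.p6.

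The arrays had a median intensity of 150 each, so values were taken to be on a common scale. The targeted gene followed the labels, with 85.7 to 104.5 for Hmga2 on its brightest probe set in the 4 Hmga2 KO samples, against 9998 to 12800 in the 3 wild type samples. Of the 18193 genes, 5 passed an adjusted p of 0.05 (limma), which is 0.0275% of them. Myoblast markers were bright in both genotypes, with Pax7 at mean log2 values of 12.54 in Hmga2 KO and 12.44 in wild type, and Myod1 at 13.85 in Hmga2 KO and 13.91 in wild type. None of the 6 myoblast markers measured passed. Among them, Chrna1 had 13.28 in Hmga2 KO and 13.57 in wild type, Des 12.30 in Hmga2 KO and 12.64 in wild type, and Myf5 11.27 in Hmga2 KO and 10.63 in wild type (adjusted p = 0.326, 0.413 and 0.431, limma). The 3' to 5' signal ratio of the Actb control, a sign of RNA integrity, was 1.64 to 1.74 in Hmga2 KO samples and 1.61 to 1.94 in wild type samples. The 1.94 belonged to wild type replicate 2, which was the highest sample for all 10 thin-filament genes. The next ratio, 1.74, belonged to Hmga2 KO replicate 2, the second highest sample for 9 of them. For the Gapdh control the same samples led, at 1.52 for wild type replicate 2 and 1.36 for Hmga2 KO replicate 2. The others had 1.22 to 1.33. The part of RNA integrity in the thin-filament values was not tested. Without wild type replicate 2 the median difference of the 10 genes between the genotypes was -0.37, in place of -0.50. None of the 10 genes passed the test. Were their lower means to hold, fewer differentiated cells and less RNA per cell could not be told apart in whole cultures.

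Among the troponin T genes, Tnnt3, the fast skeletal isoform, had intensities of 3480, 8436, 5561 and 6157 in Hmga2 KO replicates 1 to 4, against 7236, 9899 and 9066 in wild type replicates 1 to 3. Of the Hmga2 KO samples, 3 lay below every wild type sample and replicate 2 lay between them. The mean log2 difference was -0.62 (SE 0.26, adjusted p = 0.357, limma), and Tnnt3 was the 1 member among the 10 whose unadjusted limma p, 0.0410, was under 0.05. Over all genes, 10.3% were lower in Hmga2 KO at that unadjusted level, so 1 in 10 is the share of the whole array.

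Tnnt1, the slow skeletal isoform, had 5200.4, 8416, 6949 and 6443 in the Hmga2 KO samples, against 7071, 8976 and 7449 in the wild type samples. It varied least over the 7 samples, by 0.79 on the log2 scale from lowest to highest. Its difference of -0.23 (SE 0.16, adjusted p = 0.557, limma) was the smallest of the 10, and 18.0% of all genes had a lower one.

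Tnnt2, the cardiac isoform that embryonic skeletal muscle also makes, had 6171, 10727, 7081 and 7073 in Hmga2 KO, against 8729, 11752 and 9877 in wild type. Replicate 2 stood apart from the other 3 Hmga2 KO samples here, which were all below the lowest wild type value. The difference was -0.40 (SE 0.19, adjusted p = 0.395, limma). Another probe set gave -0.45, and the dimmest, with intensities of 426 to 997 in Hmga2 KO and 558 to 1159 in wild type, gave -0.23.

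Among the troponin I genes, Tnni2, the fast isoform, had 553, 2051, 1035 and 1455 in the Hmga2 KO samples, against 1503, 2702 and 2021 in the wild type samples. Its lowest and highest samples were 2.29 log2 units apart, and the SD within Hmga2 KO alone was 0.81. The difference between genotypes was -0.82 (SE 0.40, adjusted p = 0.407, limma), and 0.654% of genes had a lower one. Another Tnni2 probe set ran alongside, with a difference of -0.81. The remaining one, at 35.7 to 42.0 in Hmga2 KO and 39.9 to 44.0 in wild type, gave no signal above the 33.9 to 58.2 that Y-linked probe sets had in female samples.

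Tnni1, the slow isoform, had intensities of 3353, 8549, 5209.7 and 6736 in Hmga2 KO, against 8228, 10925 and 7437 in wild type. Again replicate 2 was the one Hmga2 KO sample above the lowest wild type sample, and it exceeded wild type replicates 1 and 3. The difference was -0.63 (SE 0.29, adjusted p = 0.383, limma).

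Troponin C gave a narrow and a wide pattern. Tnnc1, shared by slow skeletal muscle and heart, had 6969, 12514, 8666 and 10162 in the Hmga2 KO samples, against 11095, 13985 and 12324 in the wild type samples. The samples kept nearly the same order as for troponin I, within a range of 1.00 log2 units, and the difference was -0.41 (SE 0.19, adjusted p = 0.388, limma). Tnnc2, the fast isoform, had 1479.5, 5167, 2679.8 and 3318 in Hmga2 KO, against 4169, 7256 and 4201 in wild type. Wild type replicates 1 and 3 were close to each other, so replicate 2 alone made up nearly all of the spread in wild type. Its difference was -0.81 (SE 0.38, adjusted p = 0.395, limma), and the range over the samples was 2.29.

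**Figure D1:**
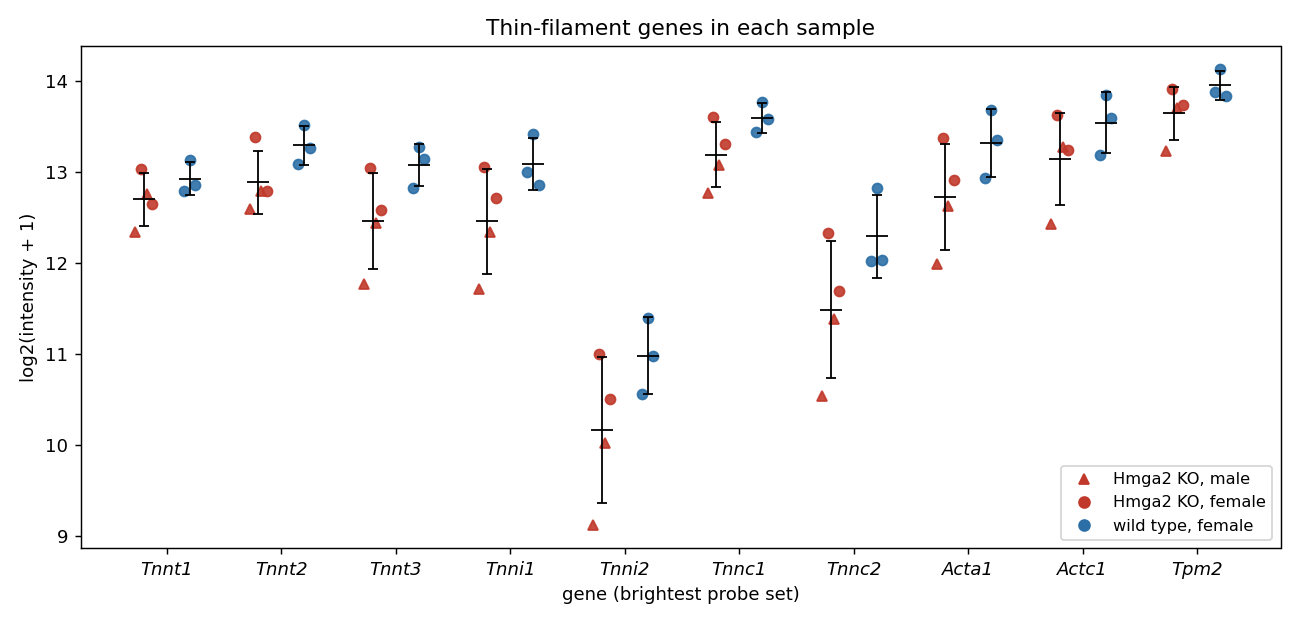
Log2(intensity + 1) of the 10 thin-filament genes on their brightest probe set, 1 point per sample, with Hmga2 KO to the left of wild type for each gene, triangles for males, circles for females, and bars for the mean and SD. The lowest point of each gene is an Hmga2 KO male, 1 Hmga2 KO female lies within the wild type range for every gene, and the spread is widest for Tnni2 and Tnnc2.

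The sarcomeric actins had the same lowest and highest samples as the troponins. Acta1, the actin of adult skeletal fibres, had 4073, 10634, 6329 and 7709 in Hmga2 KO replicates 1 to 4, against 7822, 13126 and 10441 in wild type replicates 1 to 3. Replicate 4 of Hmga2 KO was just below the lowest wild type sample and replicate 2 above the highest but one. The difference was -0.59 (SE 0.30, adjusted p = 0.421, limma). Actc1, the actin that precedes Acta1 in developing muscle, had 5538, 12670.4, 9891 and 9668 in the Hmga2 KO samples, against 9315, 14810 and 12400 in the wild type samples. It was the one member for which 3 Hmga2 KO samples, not 1, lay within the wild type range, and its difference was -0.40 (SE 0.27, adjusted p = 0.524, limma). The coding sequences of actin genes are nearly alike, and how far these probe sets separate them was not tested.

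Tpm2, which encodes beta-tropomyosin, had 9642, 15463, 13381 and 13630.4 in Hmga2 KO, against 15142, 18034 and 14694 in wild type on its brightest probe set. The genotypes overlapped through replicate 2 only, and the difference was -0.31 (SE 0.16, adjusted p = 0.436, limma). The other 3 probe sets of Tpm2 gave -0.11, -0.22 and -0.22, so all 4 had the same sign and a small size. Of the other tropomyosin genes, Tpm1 had mean log2 values of 13.70 in Hmga2 KO and 13.71 in wild type, and Tpm3 had 12.62 in Hmga2 KO and 12.67 in wild type (adjusted p = 0.954 and 0.870, limma). Tpm4, a tropomyosin of non-muscle cells, had 13.22 in Hmga2 KO and 13.42 in wild type (adjusted p = 0.492).

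Counted together, 0 of the 10 genes passed an adjusted p of 0.05 by limma, where 0.0275% of all genes did, and 1 of 10 had an unadjusted p under 0.05. The median difference over the 10 was -0.50, against -0.07 over all genes. In females alone, the 10 differences were -0.28 to -0.08 with a median of -0.19, against -0.05 over all genes, and their adjusted p was 0.796 to 0.941 (limma). Tnnt1, at -0.08, was then close to the median of all genes, and Tnnc2 the lowest at -0.28. Without Hmga2 KO replicate 1 the median over all remaining samples was -0.33.

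**Figure D2:**
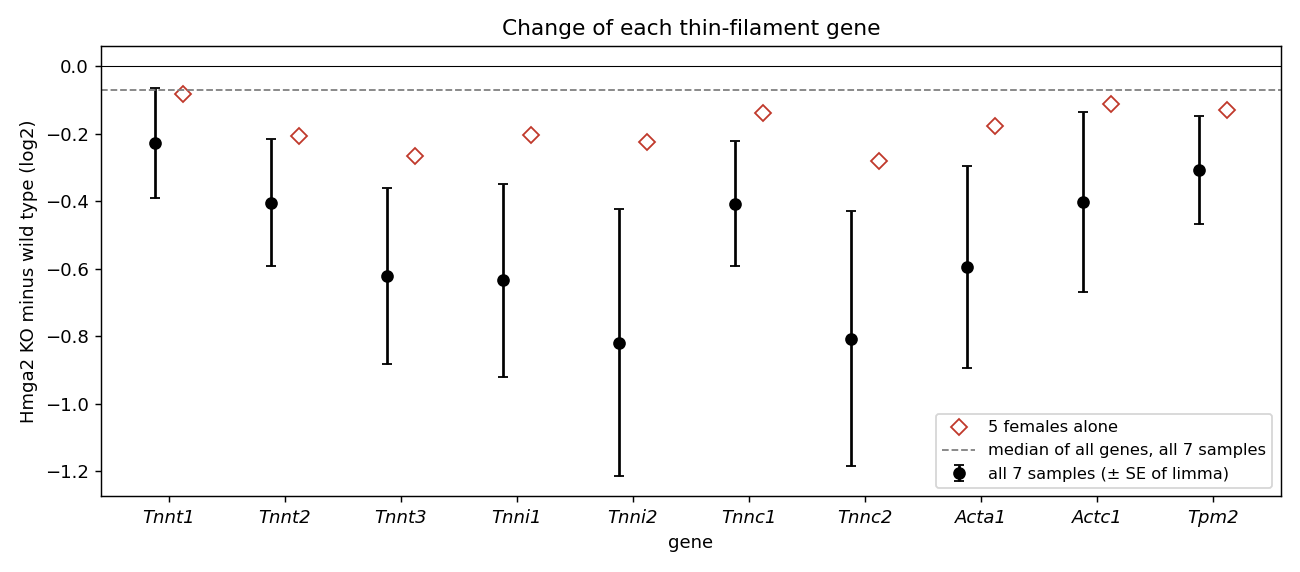
Difference of mean log2 intensity, Hmga2 KO minus wild type, for each thin-filament gene, over all 7 samples (filled circles, with the SE of limma) and over the 5 females alone (open diamonds), with the median of all genes at -0.07 as a dashed line. Differences of -0.82 to -0.23 over all samples were -0.28 to -0.08 in females alone.

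For 0 of the 10 genes did every Hmga2 KO sample lie below every wild type sample, against 9.29% of all genes. Replicate 2 alone accounts for this in 9 genes. With it left out, the genotypes did not overlap for all members except Actc1, which is 9 of 10, where 18.7% of all genes did so. Replicate 2 is named because it lay within the wild type range for these genes, so the 9 of 10 restates that. The 18.7% is not a like measure, since the sample was not picked on all genes. The members also varied together, with a median Pearson correlation of 0.95 between pairs, so they are not separate observations. Replicate 1 was below every wild type sample for 10 of 10 genes, and replicates 3 and 4 for 9 of 10, the exception being Actc1 in both. Replicate 2 was the second highest of all 7 samples for 9 genes. Without wild type replicate 1, the genotypes did not overlap for Tnnt3 only, where 22.9% of all genes did not.

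Hmga2 KO males were then set against Hmga2 KO females, because the wild type samples held no males. All 10 genes had lower means in the males, by a median of 0.65 on the log2 scale, where the median of all genes was a difference of -0.04. For Tnni2 the mean log2 values were 9.56 in males and 10.76 in females, and for Tnni1 12.03 in males and 12.89 in females. None of the 10 passed over all genes (adjusted p = 0.557 to 0.913, limma), where 0.0385% of genes did. The unadjusted p was under 0.05 for 6 of them (Tnnt3, Tnni1, Tnni2, Tnnc1, Tnnc2 and Acta1), against 3.65% of all genes that were lower in males at that level. The sexes were not apart for every gene: replicate 4, a female, was below replicate 3, a male, for Tnnt1, Tnnt2 and Actc1. With 2 samples of each sex, sex and differences between single samples cannot be told apart.

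The balance of isoforms was then taken within each sample, as the difference of log2 values between a pair of genes for the same subunit. This asks whether the pair changed unequally, and says nothing of their relative amounts. On the brightest probe sets all 5 pairs had a higher mean balance in Hmga2 KO, towards the slow or the cardiac and embryonic isoform. The exception among the alternatives run was Tnni1 minus Tnni2, at -0.044 when a gene's probe sets were averaged. The pairs are not independent of each other, since both troponin T pairs contain Tnnt3. Hmga2 KO replicate 1 also had the highest value of all samples in every pair except Actc1 minus Acta1. None of the 5 passed an exact two-sided permutation test over the 35 assignments of genotype to the samples, adjusted over the 5 pairs. The smallest p of that test is 0.0286 before adjustment, and a single pair at that value would not have passed after it. That none passed therefore says little.

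For troponin T, Tnnt1 minus Tnnt3 was 0.58, -0.0035, 0.32 and 0.07 in Hmga2 KO replicates 1 to 4, against -0.03, -0.14 and -0.28 in wild type replicates 1 to 3. The genotypes did not overlap, although replicate 2 of Hmga2 KO and replicate 1 of wild type were close. The difference was 0.39 (exact permutation p = 0.0857, adjusted over the 5 pairs p = 0.286), and in females alone 0.18. Tnnt2 minus Tnnt3 was 0.83, 0.35, 0.35 and 0.20 in Hmga2 KO, against 0.27, 0.25 and 0.12 in wild type. That pair overlapped, with a difference of 0.22 (exact permutation p = 0.229, adjusted p = 0.286), which was 0.08 without Hmga2 KO replicate 1.

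For troponin C, Tnnc1 minus Tnnc2 was 2.24, 1.28, 1.69 and 1.61 in Hmga2 KO, against 1.41, 0.95 and 1.55 in wild type. The difference of 0.40 (exact permutation p = 0.229, adjusted p = 0.286) was 0.22 without Hmga2 KO replicate 1 and also 0.22 without wild type replicate 2. For troponin I, Tnni1 minus Tnni2 was 2.06 to 2.60 in Hmga2 KO and 1.88 to 2.45 in wild type, a difference of 0.18 that was well inside either spread (exact permutation p = 0.4). It was 0.019 in females alone, 0.066 without wild type replicate 3, 0.084 without Hmga2 KO replicate 1, 0.35 without wild type replicate 1 and -0.044 with averaged probe sets. For the actins, Actc1 minus Acta1 was 0.44, 0.25, 0.64 and 0.33 in Hmga2 KO, against 0.25, 0.17 and 0.25 in wild type. Every Hmga2 KO sample was above every wild type sample, by less than 0.01 for the nearest pair, and the difference was 0.19 (exact permutation p = 0.143, adjusted p = 0.286). In females alone it was 0.065, and without Hmga2 KO replicate 3 it was 0.12. Over the 10 probe sets, mean log2 signal and range over the samples had a Pearson r of -0.79 and a Spearman rho of -0.72, as a description across genes that share the same 7 arrays. Tnni2 and Tnnc2 thus had both the lowest signals and the widest ranges, and the part of signal strength in the balance was not tested.

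**Figure D3:**
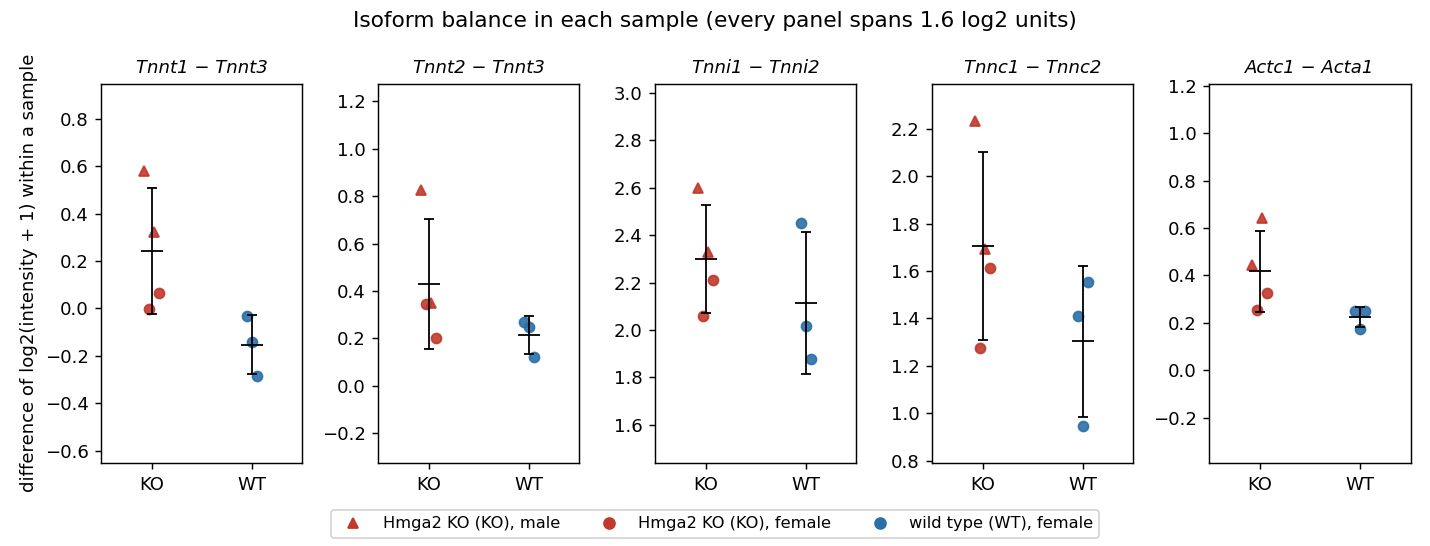
Difference of log2(intensity + 1) between 2 isoforms of a subunit in each sample, with Hmga2 KO (KO) to the left of wild type (WT), triangles for males, circles for females, and bars for the mean and SD. Values lie higher on average in Hmga2 KO in all 5 panels, and the groups are apart for Tnnt1 minus Tnnt3 and for Actc1 minus Acta1 only.

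Over the 7 samples, the 45 pairs of members had Pearson correlations of 0.88 to 0.996 with a median of 0.95, as a description of genes measured on the same arrays. By the correlation with the mean of the 10 members, the 5 most similar other genes were Vma21 (r = 0.996), an assembly factor of the vacuolar proton pump, Plpp7 (r = 0.995), Tbccd1 (r = 0.994), Mylpf (r = 0.994), a regulatory light chain of fast myosin, and Xrcc4 (r = 0.994), a DNA ligation factor, each over 7 samples. These 5 were picked as the highest of all other genes with a mean log2 of at least 8. Values this high partly follow from that ranking, and the likeness was not tested. Mylpf had mean log2 values of 13.53 in Hmga2 KO and 14.00 in wild type (adjusted p = 0.401, limma). Plpp7 had 7.82 in Hmga2 KO and 8.49 in wild type (adjusted p = 0.413).

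Other genes of the thin filament were read from a list of 14, of which 0 passed by limma in either direction and the median difference was -0.25. At an unadjusted p under 0.05, 5 were lower in Hmga2 KO and 1 higher, where 10.3% of all genes were lower and 2.99% higher. Lmod2, a leiomodin that elongates thin filaments, had intensities of 845, 2824, 1419 and 1533 in Hmga2 KO, against 2665, 3851 and 2745 in wild type. It followed the members sample by sample, with a difference of -1.01 (adjusted p = 0.305). Lmod3 differed by -0.95 (adjusted p = 0.336) and Klhl40, which stabilises leiomodin and nebulin, by -0.80 (adjusted p = 0.335). Tmod1, which caps the pointed end of the filament, had 4051 to 4401 in Hmga2 KO and 4593 to 5064 in wild type, so the genotypes were apart by a small amount (difference -0.22, adjusted p = 0.339). Neb, the giant ruler protein nebulin, had mean log2 values of 10.96 in Hmga2 KO and 11.01 in wild type (adjusted p = 0.923). Tnni3, the cardiac troponin I, had 103, 110.4, 104 and 92.2 in Hmga2 KO, against 60.9, 81.1 and 73.6 in wild type, all under the array median of 150 (difference 0.51, adjusted p = 0.226).

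Genes of the thick filament and of calcium handling were read by fibre type. Of 6 slow-fibre genes 0 passed and 5 lay below the median of all genes, with a list median of -0.70. Of 10 fast-fibre genes 0 passed and 10 lay below it, with a list median of -0.48. The 3 embryonic and perinatal genes lay below it as well, with a median of -0.63 and 0 past the test. The larger median difference was thus that of the slow list, and the difference between the lists was not tested. In females alone the medians were -0.42 for slow, -0.17 for fast and -0.32 for embryonic and perinatal genes, against -0.05 over all genes. At an unadjusted p under 0.05 (limma), 4 slow, 5 fast and 3 embryonic and perinatal genes were lower, where 10.3% of all genes were. Of the fast list, 3 genes were under the array median in all samples. Of the slow list, Myl2 (95.0 to 177) and Myl3 (81.7 to 199) lay around the array median, and both were among the 4 counted as lower. The slow median of -0.70 lies between the differences of Myl3 (-0.62) and Myh7 (-0.78). Casq1, the calcium store protein of fast fibres, had mean log2 values of 8.29 in Hmga2 KO and 9.74 in wild type, and Casq2, that of slow fibres and heart, had 11.98 in Hmga2 KO and 12.90 in wild type (adjusted p = 0.293 for both, limma). Myh8, the perinatal myosin heavy chain, had 9.29 in Hmga2 KO and 10.63 in wild type (adjusted p = 0.212).

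**Figure D4:**
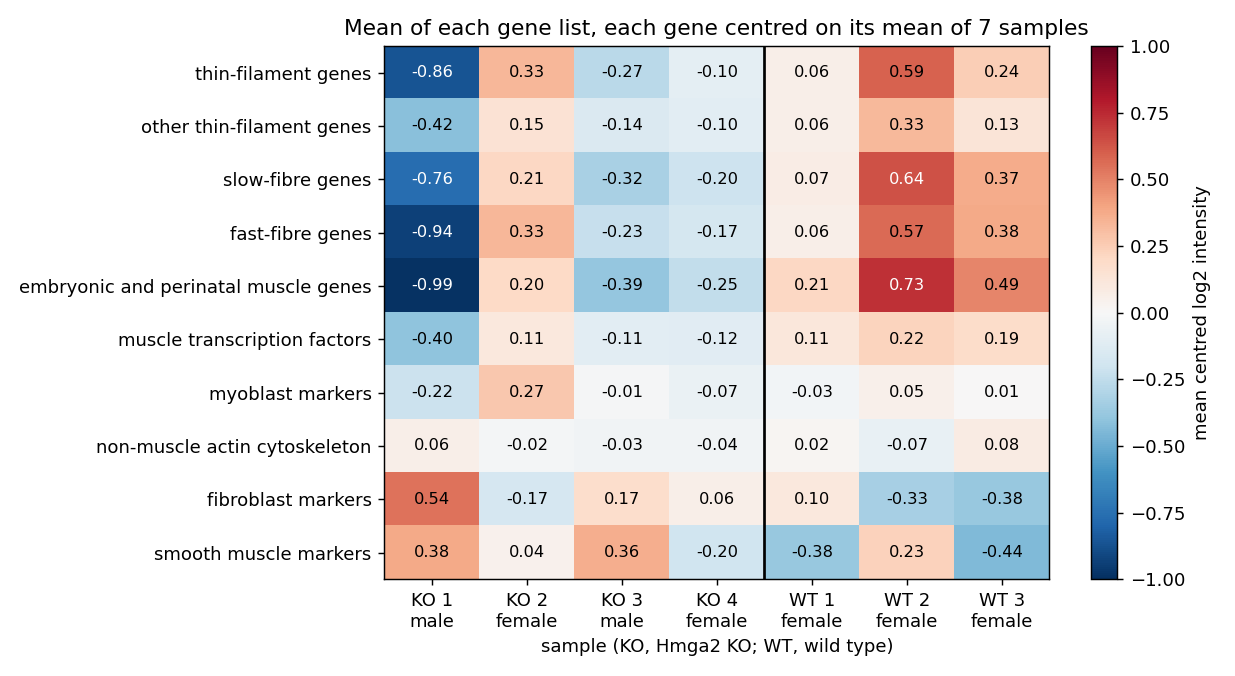
Mean centred log2 intensity of 10 gene lists (rows) in each sample (columns), each gene centred on its own mean over the 7 samples, with Hmga2 KO to the left of the line and wild type to the right. The thin-filament row reaches -0.86 in Hmga2 KO replicate 1 and 0.59 in wild type replicate 2, and the row of the non-muscle actin cytoskeleton stays between -0.07 and 0.08.

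Transcription factors that act on these genes were a list of 12, with 11 measured, of which 0 passed and 2 were lower at an unadjusted p under 0.05, where 10.3% of all genes were. Myf6, a myogenic factor of differentiated fibres, had intensities of 145, 519, 238 and 150 in Hmga2 KO, against 517, 646 and 500.1 in wild type, with the same Hmga2 KO sample, replicate 2, within the wild type range (difference -1.27, adjusted p = 0.293). Mef2c had 5622.5 to 10305 in Hmga2 KO and 10687 to 10768 in wild type, so the groups did not overlap. Of all genes, 9.29% were lower in Hmga2 KO in that way. Its difference was -0.41 (adjusted p = 0.419, limma), and -0.06 in females alone. Sox6, a repressor of slow-fibre genes, had mean log2 values of 7.58 in Hmga2 KO and 7.98 in wild type (adjusted p = 0.353). Tead4 had 7.76 in Hmga2 KO and 8.21 in wild type (adjusted p = 0.424, limma). Myog had 14.06 in Hmga2 KO and 14.23 in wild type (adjusted p = 0.596), and Srf had 10.99 in Hmga2 KO and 11.12 in wild type (adjusted p = 0.638). Of the non-muscle actin cytoskeleton, 0 of 6 genes passed and 3 lay below the median of all genes. Actb, the cytoplasmic beta-actin, had 14.53 in both genotypes (difference -0.0017, adjusted p = 0.994, limma), beside -0.59 for Acta1. It was the flattest of its list: Tmod3, a tropomodulin of non-muscle cells, had 11.88 in Hmga2 KO and 11.46 in wild type (adjusted p = 0.320). Capzb, a subunit of the protein that caps the barbed end, had 12.72 in Hmga2 KO and 12.89 in wild type, with groups that did not overlap (adjusted p = 0.434).

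Markers of other cells were read beside the members, and none passed the test. Of 7 fibroblast markers measured, 3 were higher in Hmga2 KO at an unadjusted p under 0.05, where 2.99% of all genes were, and 1 lay below the median of all genes. Their summed intensity was 6082 to 7338 in Hmga2 KO and 3863 to 6014 in wild type, and most of it in Hmga2 KO was that of Mgp, an inhibitor of calcification. Mgp had 4004, 5167, 4336 and 4819 in the Hmga2 KO samples, against 2495, 2841 and 2914 in the wild type samples (difference 0.73, adjusted p = 0.158, limma). Smoc2, a matricellular protein, had mean log2 values of 8.27 in Hmga2 KO and 6.60 in wild type (adjusted p = 0.201), whereas Col1a1, a chain of type I collagen, had 9.33 in Hmga2 KO and 10.04 in wild type (adjusted p = 0.802). Dcn, Lum and Dpt, which define these cells, were under the array median in all 7 samples. The median difference of the list was 0.32, beside -0.50 for the members. It was that of Dcn, whose intensities were 55.7 to 82.5 and which was also 1 of the 3 counted as higher. Averaged over the fibroblast markers, centred log2 intensity stood at 0.54 in Hmga2 KO replicate 1 and at -0.33 in wild type replicate 2. The thin-filament averages of those samples were -0.86 and 0.59. The lowest fibroblast average was -0.38, in wild type replicate 3, where the thin-filament average was 0.24. Only in wild type replicate 1 did both averages have the same sign, at 0.10 for fibroblast markers and 0.06 for thin-filament genes. Of the fibroblast list, only Pdgfra (620) and Col1a1 (2189) had their highest Hmga2 KO intensity in replicate 1. Mgp had its lowest there, and Dcn and Smoc2 were higher in Hmga2 KO replicate 2. Col1a1 was higher still in wild type replicate 1, at 2891. Of 7 smooth muscle markers 0 passed, and 1, Rgs5, was higher in Hmga2 KO at an unadjusted p under 0.05, where 2.99% of all genes were. Rgs5 had 9508, 10110, 11001 and 5946 in Hmga2 KO, against 3078, 6701 and 949 in wild type (difference 1.72, adjusted p = 0.295, limma). The sum of the list was 18809 to 27358 in Hmga2 KO and 17147 to 26291 in wild type. Acta2 alone had 11058 to 14975.5 in Hmga2 KO and 11882 to 15908 in wild type. Myh11, Cnn1 and Lmod1 were under the array median throughout. Of 7 cardiomyocyte markers all but Gata4 were under it in every sample. All 5 endothelial, all 5 leukocyte and both neural markers measured were under it as well. Of 4 adipocyte markers 0 passed, and their sum was 916 to 1310 in Hmga2 KO and 1144 to 1309 in wild type. The part of fibroblast and smooth muscle markers in the thin-filament values was not tested.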

How the data were processed

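The authors deposited 1 table of probe set intensities on a linear scale for 45101 probe sets and 7 Affymetrix arrays hybridised with biotin-labelled cRNA, per the labels' protocols. The deposited intensities have a median of 150 on each array, from which a common scaling was inferred; it is not stated. How probes were summarized, corrected for background and processed, and with which software and build, is not stated in the labels or the table. With no detection call used, a floor near 33.2 to 36.7 understates differences of dim genes.

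Intensities were transformed to log2(intensity + 1). Gene names came from the platform annotation, without 932 paired with several genes and 9160 with no gene there. For 34741 of 34945 probe sets the gene identifier was found in RefSeq (GRCm38.p6), which changed 0 symbols. The probe set brightest on average (log2) stood for each gene. Genotypes were compared over all 18193 genes in limma (version 3.58.1, lmFit then eBayes, under R 4.3.3), with p-values adjusted by Benjamini-Hochberg and called under 0.05. Males and females of Hmga2 KO were compared in a 3-group fit. Isoform balances were tested by exact permutation, adjusted over 5 pairs. The scripts were tested on simulated data. The members, gene lists and tests were chosen with earlier results of these data known, so they are not independent of them. Named genes are the 10 members, Hmga2, up to 4 genes of each list with the smallest p, and genes on which a result turns. The 5 genes with a mean log2 intensity of at least 8 that correlated best with the members are named too. The rank counts, and Tpm1, Tpm3, Tpm4 and Neb, were added after values were seen. Other settings tried were a term for sex, the 5 females, a block for the replicate number, each sample left out in turn, quantile-normalized arrays, no genes of the dimmest 40%, averaged or most variable probe sets, single probe sets, a trended robust prior, and 16 as pseudocount.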

Additional observations from a re-analysis of the deposited data

How the results depend on the processing

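No thin-filament gene passed under any of the 18 alternatives, and the 10 genes had a lower mean in Hmga2 KO in each alternative that gave gene values. The median of the 10 was -0.69 to -0.33 when 1 sample was left out, -0.19 in females alone, and -0.19 without both wild type replicate 2 and Hmga2 KO replicate 1, an alternative chosen after seeing the data. The count of genes past the threshold over the array was 2 to 17 when 1 sample was left out, with 17 when Hmga2 KO replicate 2 was omitted, 2 for wild type replicate 3, and 3 for wild type replicate 1 or Hmga2 KO replicate 3. It was 16 without both wild type replicate 2 and Hmga2 KO replicate 1. It was 99 with the replicate number as a block. Deviations of same-numbered samples from their group means correlated at 0.31, 0.37 and -0.18, against -0.40 to 0.18 for samples of different numbers. The same-numbered values did not all go the same way, and the numbers were not taken to pair the samples. Of the isoform balances, Tnni1 minus Tnni2 was -0.044 when a gene's probe sets were averaged, which brings in the Tnni2 probe set at background. The others kept their sign in every alternative run. With sex in the model the balance has the value of females alone and was not tested apart. Genotype groups that did not overlap numbered 0 to 9 of the 10 members when 1 sample was left out. Tnni3, Tmod4 and Kbtbd13 were under the array median in all 7 samples, near enough to the floor that their differences may be understated, and 2 Hmga2 KO females leave little room to tell sex from genotype.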
